A study of Ambystoma mexicanum with 18 samples.

Results

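The genes described here are the nuclear gene models whose symbol names a subunit of the complexes of oxidative phosphorylation or a cytochrome c (NDUFA, NDUFB, NDUFC, NDUFS, NDUFV, SDH, UQCR, CYC1, CYCS, COX4 to COX8 and ATP5 symbols), with at least 0.5 counts per 1000000 counts of the library (CPM) in at least 3 of 18 libraries. Of the 82 models with such a symbol 64 were kept, carrying 59 symbols, among 25377 gene models tested. They comprised 34 models of complex I, 3 of complex II, 2 of complex III, 8 of complex IV and 17 of complex V, and 60 of them reached 0.5 CPM in all 18 libraries. The 18 models left out reached at most 0.964 CPM, and with them the symbols NDUFA2 and UQCRC1 dropped out altogether. SDHB, CYC1, CYCS, UQCRC2, UQCRFS1, COX4I1 and COX5B were not analysed here, so that complex III is represented by UQCR10 and UQCRH alone. NDUFA4 was counted with complex I by its symbol, although the mammalian protein is assigned to complex IV. For 5 symbols (NDUFA4, NDUFB1, NDUFB5, COX7B.L and ATP5MG) several models were kept, 7 models span less than 1.5 kb and 9 averaged under 6 CPM. Reads could be split between near-identical copies, and the values of such models are uncertain.

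Oxidative phosphorylation takes place in the inner mitochondrial membrane. Complex I passes electrons from NADH, and complex II from succinate, to ubiquinone. Complex III hands them on to cytochrome c, complex IV passes them to oxygen, and complex V, the ATP synthase, makes ATP from the proton gradient built on the way. Most subunits are encoded in the nucleus and imported, some come from the mitochondrial genome, and complex II, which is also an enzyme of the citric acid cycle, has nuclear subunits only.

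The cells came from forelimb blastemas, the mounds of progenitor cells that rebuild an amputated limb, of Hoxa13:Cherry transgenic axolotls (Ambystoma mexicanum), in which the reporter marks distal cells, and all groups were sorted as Cherry+. At 3 and at 8 days post electroporation (dpe) there were cells carrying Tig1 joined to GFP, cells carrying Tig1P155A, a form with a point mutation, joined to GFP, and control cells without GFP. Each of these 6 groups had 3 libraries of 300 cells each, made with Smart-seq2, a protocol for very small amounts of RNA. Control cells came from the electroporated blastemas and no group with GFP alone was analysed here. The methods call the libraries biological replicates. Blastemas were pooled, and whether each library had a pool of its own is not stated, so that p-values measure the spread between these libraries, and how much of it is technical is not known.

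The libraries held between 9732514 and 23086124 counts. Tig1 itself lay between 151 and 514 CPM in the 12 overexpressing libraries and between 2.85 and 8.81 CPM in the 6 control libraries. Genes of the mitochondrial genome took between 18.4% and 65.4% of the counts of an overexpressing library and between 23.6% and 45.3% of a control library. Most of these counts were 16S ribosomal RNA, which alone took 13.4% to 58.1% and 19.7% to 37.7%. The 12 messenger RNAs of that genome that were tested summed to 7076 to 25560 CPM in overexpressing and 7105 to 35550 CPM in control libraries. The groups also differed in cell type markers. The summed level of 11 myeloid genes ranged from 5241 to 11874 CPM in overexpressing and from 9.88 to 123 CPM in control libraries, none of them was at 0 in any group, and all 11 rose on average. Of 15 connective tissue genes, which mark the cell type of the blastema, 14 fell on average. Their sum ranged from 726 to 1806 CPM in overexpressing and from 4312 to 10502 CPM in control libraries at 3 dpe. At 8 dpe it ranged from 2917 to 10121 CPM and from 11636 to 16973 CPM, without overlap at either time. COL5A1 was at 0 in both Tig1P155A groups and in control cells at 3 dpe. Across all genes tested 21.4% rose and 18.7% fell on average (edgeR, adjusted p under 0.05). The counts of marker genes are to be read against these shares, and small counts in short lists say little. Of the other lists, 2 of 2 neutrophil, 1 of 5 lymphocyte and 2 of 7 endothelial genes rose, and 1 of 4 erythroid, 1 of 6 epidermis and 2 of 7 muscle genes fell. Most epidermis and muscle genes had positive average values, however (medians 1.29 and 0.66), and the sums differed by time point. At 3 dpe the muscle sum was 0.819 to 54.2 CPM in overexpressing and 49.5 to 227 CPM in control libraries. At 8 dpe it was 17.9 to 761 CPM and 7.09 to 35.4 CPM. The epidermis sum was 42.6 to 235 CPM in overexpressing and 516 to 655 CPM in control libraries at 3 dpe. At 8 dpe it was 152 to 2130 CPM and 720 to 928 CPM. In bulk samples fewer cells of a type and less RNA per cell cannot be told apart, and the part of these markers in the results below was not tested.

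To ask whether forced expression of Tig1 moved these genes, each overexpressing group was compared with the control of the same time point, and the 4 differences were averaged. COX4I2, an alternative isoform of a complex IV subunit, fell by 2.72 on the log2 scale. Of the other members, SDHA and SDHD.L of complex II rose, and 6 members of complex I, among them NDUFS3, NDUFS7, NDUFA8, NDUFB8 and NDUFB10, and COX7A2.S of complex IV fell. Altogether 2 of 64 members were higher, where 21.4% of all genes tested were higher, and 8 of 64 were lower, where 18.7% of all genes tested were lower (edgeR quasi-likelihood test with Benjamini-Hochberg adjustment, adjusted p under 0.05). Among the 55 members with a mean of at least 6 CPM, 2 were higher and 8 lower. Of all 10218 tested genes at that level, 3320 were higher and 2635 lower. The median change was −0.19 over the 64 members and 0.05 over all genes tested. It was −0.34 for complex I, 0.50 for complex II, −0.17 for complex III, −0.01 for complex IV and −0.05 for complex V.

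These counts moved with the scaling between libraries. With DESeq2's size factors 0 members were higher and 19 lower, where 20% and 21.5% of all genes tested were. With the library size alone 0 were higher and 28 lower (13.7% and 29.8% of all genes), and with the mitochondrial genome left out before scaling 0 were higher and 21 lower (16.9% and 21.5%). DESeq2's own test called 1 higher and 20 lower (23.2% and 22.1%). They also moved with single libraries. Without control 3 dpe replicate 1, 3 members were higher (NDUFB3, SDHA and SDHD.L) and COX4I2 alone was lower, with a median of 0.05. The count of lower members was 14 without control 3 dpe replicate 2 and 18 without control 3 dpe replicate 3. It was 4 without Tig1 8 dpe replicate 3, Tig1P155A 8 dpe replicate 2 or control 8 dpe replicate 1, and 5 without control 8 dpe replicate 2. Shares over all genes tested are not given for fits with a library left out. Whether these shifts are particular to the members was not tested.

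**Figure D1:**
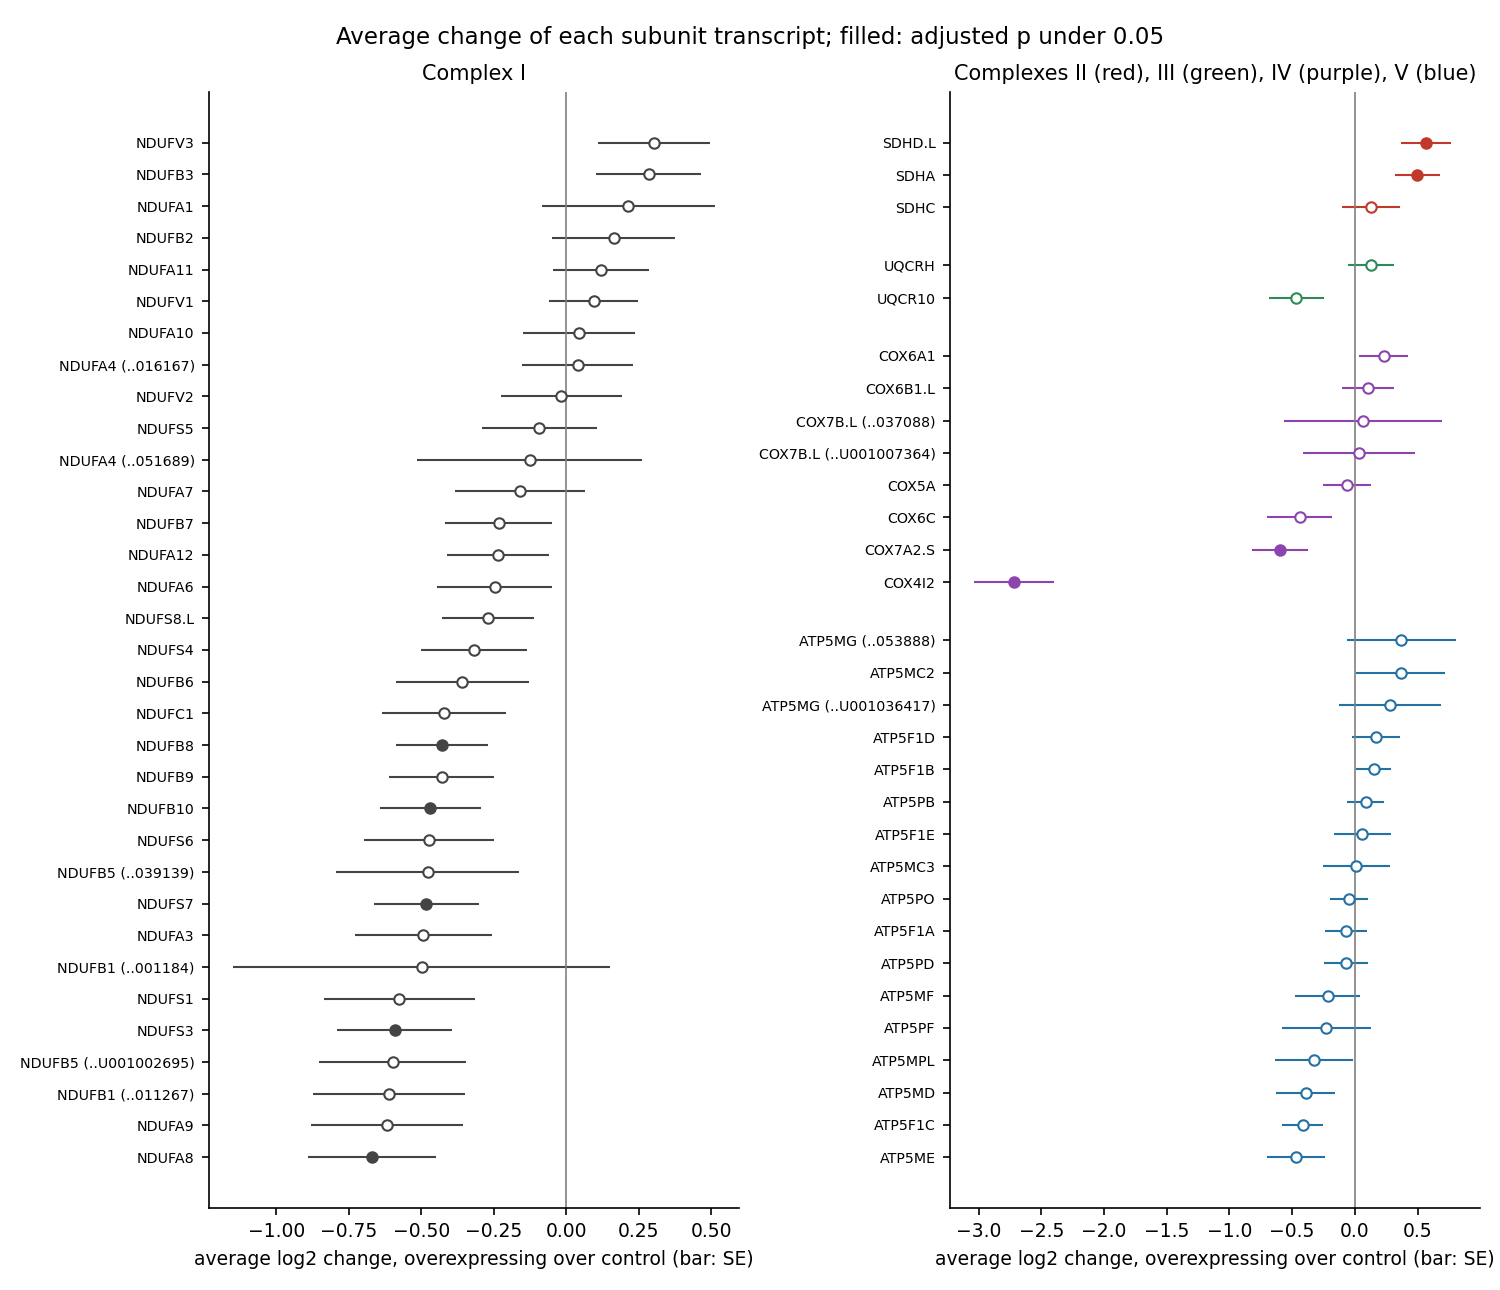
The average log2 change of gene models of the 5 complexes in overexpressing over control cells (points, with bars for the standard error), for complex I and for complexes II to V, with filled points for models past the threshold and the end of the gene identifier where a symbol has several models. COX4I2 lies far to the left at −2.72, SDHA and SDHD.L are filled to the right of 0, and most models of complex I lie to the left of 0.

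Control 3 dpe replicate 1 stood apart in these genes. The 64 members together took 0.698, 0.673 and 0.790% of the counts of nuclear genes in Tig1 and 0.702, 0.740 and 0.753% in Tig1P155A libraries at 3 dpe, against 1.34, 0.952 and 0.876% in control libraries. At 8 dpe they took 0.659, 0.601 and 0.536% in Tig1 and 0.683, 0.559 and 0.734% in Tig1P155A libraries, against 0.896, 0.887 and 0.764% in control libraries. At each time point the share was lower in every overexpressing library than in every control library, and it was highest in control 3 dpe replicate 1. A share falls when other genes take more of the reads, and as CPM with edgeR's TMM scaling the sums of the members overlapped, at 4561 to 5703 CPM in overexpressing and 4154 to 8207 CPM in control libraries at 3 dpe, and at 3143 to 4959 CPM in overexpressing and 3793 to 4777 CPM in control libraries at 8 dpe. At 3 dpe the TMM factors were 0.511 to 1.088 in overexpressing and 1.095 to 1.491 in control libraries. At 8 dpe they were 0.640 to 1.158 and 1.176 to 1.442, without overlap at either time. The CPM values of single genes use the same factors, so that the positions of libraries depend on this scaling.

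Complex I is the entry point for electrons from NADH. Of its 34 models 6 fell and 0 rose, where 18.7% and 21.4% of all genes tested did. At an unadjusted p under 0.05, 12 were lower and 0 higher, where 23.3% and 25% of all genes tested were. DESeq2 called 15 lower and 0 higher, where 22.1% and 23.2% of all genes tested were. Of the 31 models with a mean of at least 6 CPM, 6 fell and 0 rose, and 12 had an unadjusted p under 0.05 (edgeR). Of all 10218 tested genes at that level, 2635 fell and 3320 rose. An unadjusted p under 0.05 was reached by 6628 of them, of which 3592 were higher. As a share of nuclear counts complex I had 0.201, 0.199 and 0.223% in Tig1 and 0.202, 0.207 and 0.210% in Tig1P155A libraries at 3 dpe, against 0.430, 0.308 and 0.275% in control libraries. At 8 dpe it had 0.202, 0.175 and 0.159% in Tig1 and 0.201, 0.163 and 0.220% in Tig1P155A libraries, against 0.292, 0.302 and 0.249% in control libraries. All 12 overexpressing libraries lay below all 6 control libraries. The sums of CPM overlapped, at 1348 to 1610 CPM in overexpressing and 1302 to 2631 CPM in control libraries at 3 dpe.

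**Figure D2:**
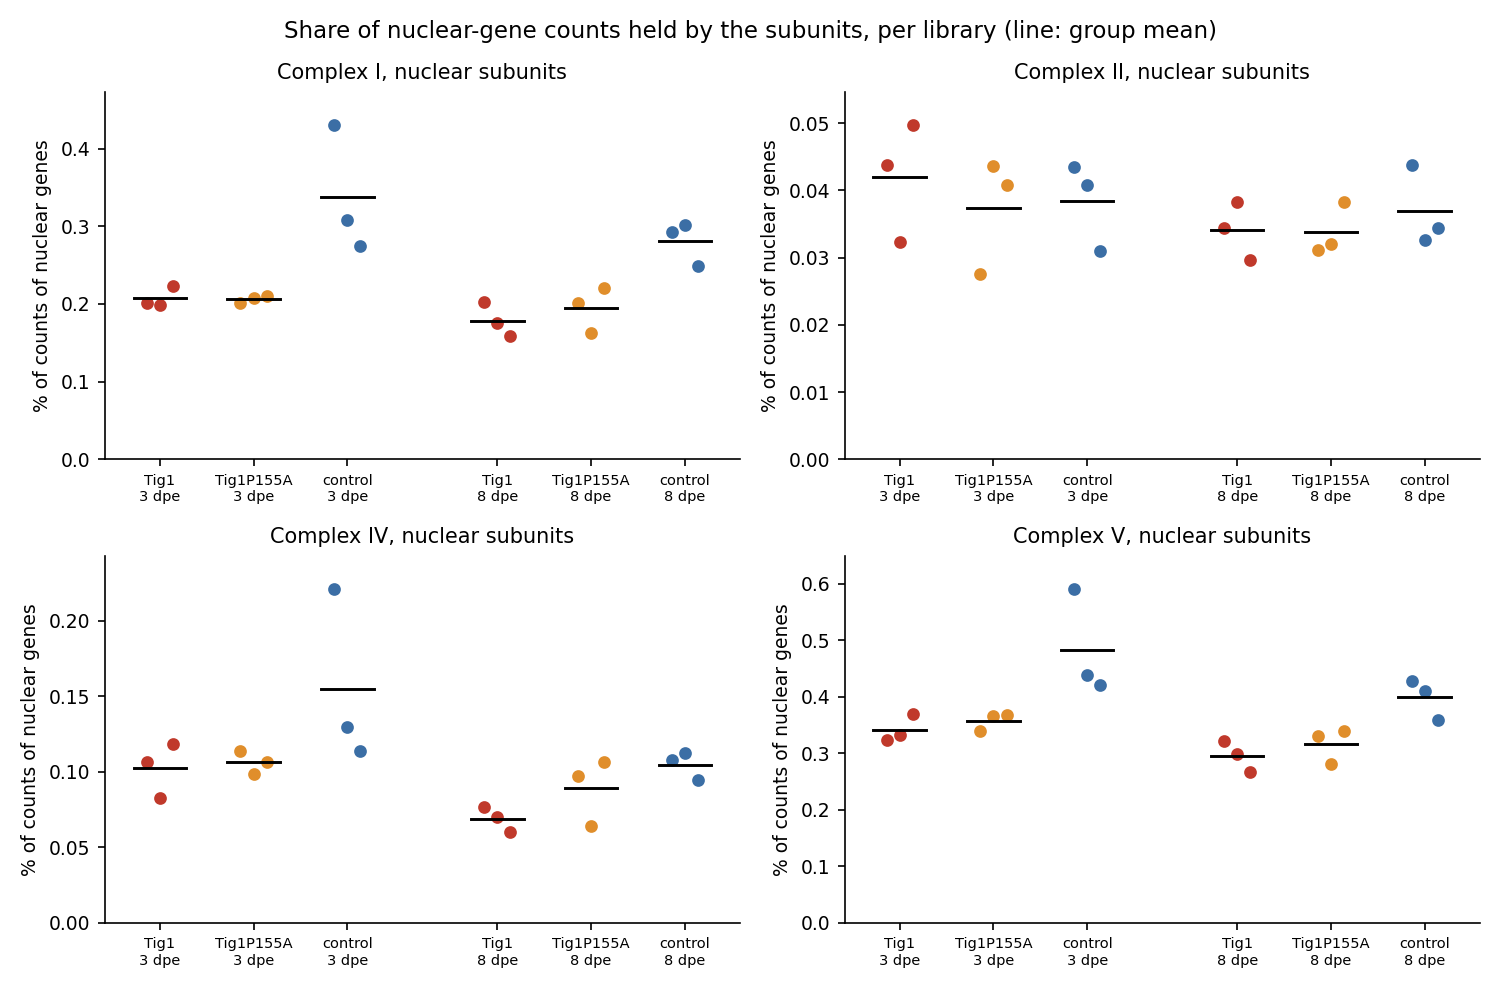
The share of the counts of nuclear genes, in percent, held by the nuclear subunits of a complex in each library (points) with the group mean (line), for Tig1, Tig1P155A and control cells at 3 and 8 dpe. For complex I the overexpressing libraries reach at most 0.223% and the control libraries start at 0.249%. Complex V is also lower at each time point, at 0.323 to 0.370% against 0.421 to 0.591% in control libraries at 3 dpe. At 8 dpe it has 0.267 to 0.340% against 0.358 to 0.427%. The points of complexes II and IV overlap.

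The core of complex I has a part that oxidizes NADH and a part that reduces ubiquinone. In the ubiquinone part, NDUFS3 (AMEX60DD005333, forward strand of chromosome 11q from 709819374 to 710001646) had 31.1, 42.2 and 22.3 CPM in Tig1 and 30.2, 33.9 and 29.1 CPM in Tig1P155A cells at 3 dpe, against 69.1, 41.4 and 31.0 CPM in control cells. Its 8 dpe values were 26.2, 23.1 and 18.6 CPM in Tig1 and 18.5, 21.8 and 31.8 CPM in Tig1P155A cells, against 43.1, 34.3 and 28.7 CPM in control cells. For NDUFS3, 8 of 12 libraries were below every control of their time point. It fell by 0.59 (SE 0.20, adjusted p = 0.0236, edgeR), and its change was −0.40 without control 3 dpe replicate 1 (adjusted p = 0.118, edgeR).

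NDUFS7, which carries the last iron-sulfur cluster before ubiquinone, had 65.9, 64.9 and 56.8 CPM in Tig1 and 45.5, 72.9 and 71.2 CPM in Tig1P155A cells at 3 dpe, against 143, 96.4 and 65.4 CPM in control cells. In the 8 dpe libraries it had 60.5, 59.8 and 53.7 CPM in Tig1 and 47.5, 54.8 and 72.3 CPM in Tig1P155A cells, against 91.2, 58.5 and 61.0 CPM in control cells. It fell by 0.48 (SE 0.18, adjusted p = 0.0402, edgeR), with 6 of 12 libraries below every control of their time point. The call was lost without any 1 of Tig1 3 dpe replicate 3, Tig1P155A 3 dpe replicate 1, control 3 dpe replicate 1, Tig1 8 dpe replicate 3, Tig1P155A 8 dpe replicate 1 or 2 and control 8 dpe replicate 1, with changes from −0.67 to −0.32 over all libraries left out (adjusted p = 0.00674 to 0.171, edgeR). The change of NDUFS8.L, another iron-sulfur subunit, was −0.27 (SE 0.16, adjusted p = 0.191, edgeR).

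In the NADH part, NDUFV1, which binds NADH and the flavin, had 70.5, 64.6 and 82.1 CPM in Tig1 and 81.0, 97.0 and 94.7 CPM in Tig1P155A cells at 3 dpe, against 55.3, 58.5 and 70.8 CPM in control cells. By 8 dpe it had 92.8, 70.4 and 56.1 CPM in Tig1 and 45.6, 67.9 and 70.1 CPM in Tig1P155A cells, against 77.7, 77.1 and 77.6 CPM in control cells. All 3 Tig1P155A libraries were above the controls at 3 dpe and below them at 8 dpe. The average change was 0.09 (SE 0.15, adjusted p = 0.695, edgeR), and its sign was negative with each of the other scalings. The iron-sulfur subunits of this part, NDUFV2 (−0.02, SE 0.21, adjusted p = 1, edgeR) and NDUFS1 (−0.58, SE 0.26, adjusted p = 0.0868, edgeR), were not called either. NDUFS1 was called lower with each of the other scalings, by DESeq2 and without control 3 dpe replicate 3 (−0.78, adjusted p = 0.0293, edgeR).

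Around the core sit accessory subunits without a catalytic site. NDUFA8 had 39.5, 31.6 and 28.6 CPM in Tig1 and 26.6, 50.8 and 26.4 CPM in Tig1P155A cells at 3 dpe, against 88.1, 51.5 and 33.8 CPM in control cells. At 8 dpe it had 29.7, 35.2 and 20.1 CPM in Tig1 and 19.4, 29.3 and 33.5 CPM in Tig1P155A cells, against 46.7, 46.1 and 31.6 CPM in control cells. The highest library was control 3 dpe replicate 1, and 8 of 12 overexpressing libraries were below every control of their time point. NDUFA8 fell by 0.67 (SE 0.22, adjusted p = 0.0216, edgeR), a call lost without control 3 dpe replicate 1 (−0.45, adjusted p = 0.114, edgeR) or control 8 dpe replicate 2.

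NDUFB8 and NDUFB10 belong to the membrane arm. NDUFB8 fell by 0.43 (SE 0.16, adjusted p = 0.0374, edgeR), with 7 of 12 libraries below every control, and lost the call without Tig1P155A 3 dpe replicate 3, control 3 dpe replicate 1, Tig1 8 dpe replicate 3, Tig1P155A 8 dpe replicate 2 or control 8 dpe replicate 1 or 2 (adjusted p up to 0.167, edgeR). NDUFB10 fell by 0.47 (SE 0.17, adjusted p = 0.0402, edgeR), with 5 of 12 libraries below every control. Its call was lost in 9 of 18 cases of 1 library left out, among them control 3 dpe replicate 1 (−0.34, adjusted p = 0.144, edgeR).

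The highest changes in complex I, chosen after their values were seen, were those of NDUFV3 (0.30, SE 0.19, adjusted p = 0.229, edgeR) and NDUFB3 (0.28, SE 0.18, adjusted p = 0.233, edgeR), both accessory subunits. Each was positive in all 4 comparisons and neither was called. Of the symbols with several models, both NDUFB1 models were negative (−0.61 and −0.50), as were both NDUFB5 models (−0.60 and −0.48), and the NDUFA4 models had 0.04 and −0.13. None of these 6 was called as reported, while 1 model each of NDUFB1 and NDUFB5 was lower with each of the other scalings, by DESeq2 and without some single libraries.

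In complex II, 2 of 3 models rose with TMM scaling, where 21.4% of all genes tested did. As a share of nuclear counts the complex did not run higher throughout: its mean over that of control cells was 1.09 in Tig1 cells and 0.972 in Tig1P155A cells of 3 dpe, and 0.923 in Tig1 cells and 0.915 in Tig1P155A cells of 8 dpe, with overlapping libraries. SDHA, the flavoprotein that oxidizes succinate (AMEX60DD036786, reverse strand of chromosome 5p from 20029926 to 20489345), had 44.9, 41.6 and 71.1 CPM in Tig1 and 53.1, 49.7 and 49.9 CPM in Tig1P155A cells at 3 dpe, against 35.6, 34.8 and 27.4 CPM in control cells. Its 8 dpe values were 42.5, 33.3 and 33.9 CPM in Tig1 and 47.0, 29.4 and 33.2 CPM in Tig1P155A cells, against 35.3, 31.9 and 19.98 CPM in control cells. As CPM with TMM scaling, all 6 overexpressing libraries were above the controls at 3 dpe, and 2 of 6 were at 8 dpe. Positions of single libraries under other scalings are not given. SDHA rose by 0.50 (SE 0.18, adjusted p = 0.0351, edgeR). The call held without Tig1 3 dpe replicate 2, Tig1P155A 3 dpe replicate 1 or 3, control 3 dpe replicate 1, Tig1 8 dpe replicate 3 or control 8 dpe replicate 2 and was lost without any 1 of the other 12 libraries, with changes from 0.32 to 0.53 (adjusted p = 0.0244 to 0.197, edgeR).

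SDHD.L, a membrane anchor of the complex (AMEX60DD053726, reverse strand of chromosome 9p from 105434419 to 105537784), had 133, 100.3 and 153 CPM in Tig1 and 98.6, 164 and 116 CPM in Tig1P155A cells at 3 dpe, against 102, 76.3 and 48.1 CPM in control cells. In the 8 dpe libraries it had 80.4, 98.1 and 68.1 CPM in Tig1 and 63.8, 76.5 and 105 CPM in Tig1P155A cells, against 77.4, 48.0 and 64.4 CPM in control cells. The groups overlapped, and 7 of 12 libraries were above every control of their time point. SDHD.L rose by 0.56 (SE 0.20, adjusted p = 0.0298, edgeR), positive in all 4 comparisons. The call was lost without any 1 of Tig1 3 dpe replicate 1, Tig1P155A 3 dpe replicate 2, control 3 dpe replicate 2 or 3, Tig1 8 dpe replicate 2, Tig1P155A 8 dpe replicate 2 or 3 and control 8 dpe replicate 2 or 3, with changes from 0.37 to 0.70 over all libraries left out (adjusted p = 0.0117 to 0.149, edgeR).

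The other anchor, SDHC, had 149.7, 77.5 and 134 CPM in Tig1 and 55.7, 117 and 142 CPM in Tig1P155A cells at 3 dpe, against 129, 98.1 and 71.5 CPM in control cells, and its groups overlapped. Its average change was 0.13 (SE 0.23, adjusted p = 0.729, edgeR). With DESeq2's size factors none of the 3 models was called, and with the library size alone SDHA had −0.09.

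**Figure D3:**
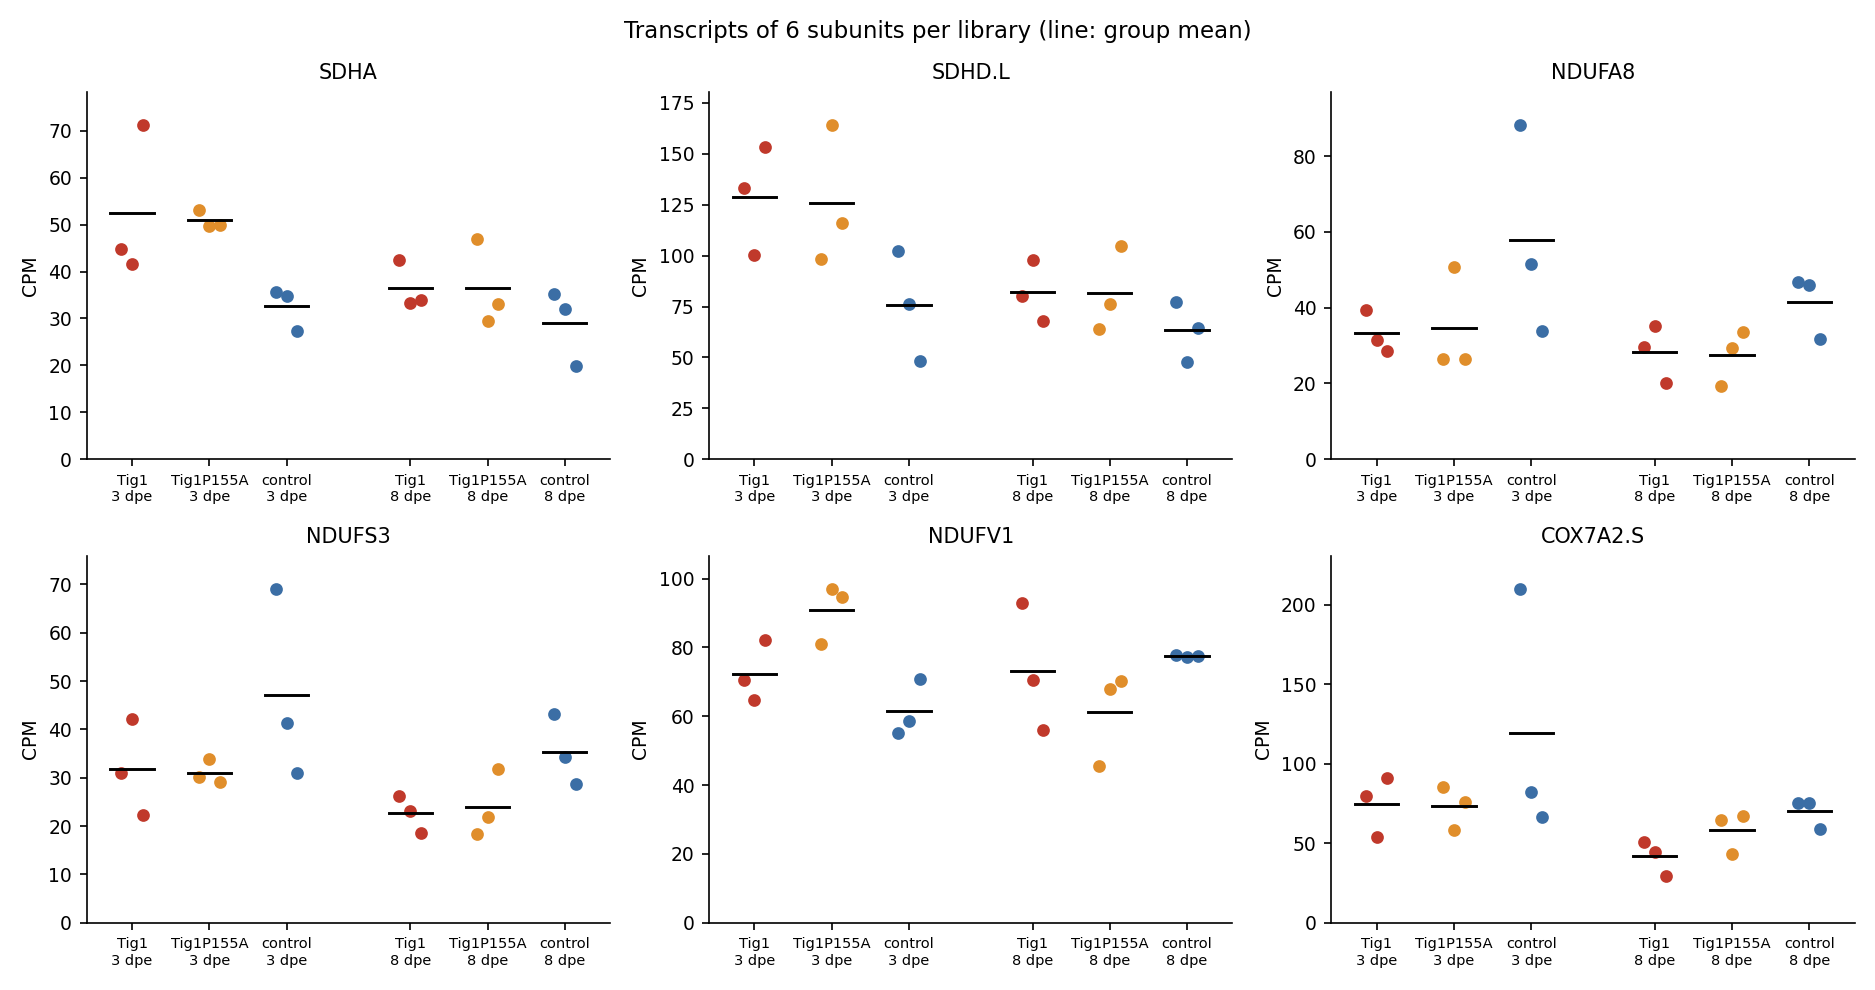
CPM of 6 subunits in each library (points) with the group mean (line), for Tig1, Tig1P155A and control cells at 3 and 8 dpe. SDHA and SDHD.L are higher and NDUFA8, NDUFS3 and COX7A2.S lower on average in overexpressing cells, and control 3 dpe replicate 1 is the highest library for NDUFA8, NDUFS3 and COX7A2.S.

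A ratio of complexes within a library does not depend on the scaling between libraries. Complex II over complex I, as summed CPM, was 0.218, 0.163 and 0.223 in Tig1 and 0.137, 0.211 and 0.195 in Tig1P155A libraries at 3 dpe, against 0.101, 0.132 and 0.113 in control libraries. At 8 dpe it was 0.170, 0.219 and 0.186 in Tig1 and 0.155, 0.196 and 0.174 in Tig1P155A libraries, against 0.150, 0.108 and 0.138 in control libraries. At each time point all 6 overexpressing libraries lay above all 3 control libraries. Complex V over complex I ranged from 1.61 to 1.77 in overexpressing and from 1.37 to 1.54 in control libraries at 3 dpe, and from 1.54 to 1.72 in overexpressing and from 1.36 to 1.46 in control libraries at 8 dpe. Complex I made up 27.8% to 30.7% of the members' summed CPM in overexpressing and 31.3% to 34.0% in control libraries. The ratios of complexes III and IV to complex I overlapped between overexpressing and control libraries at both time points. These values describe the libraries and carry no test.

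**Figure D4:**
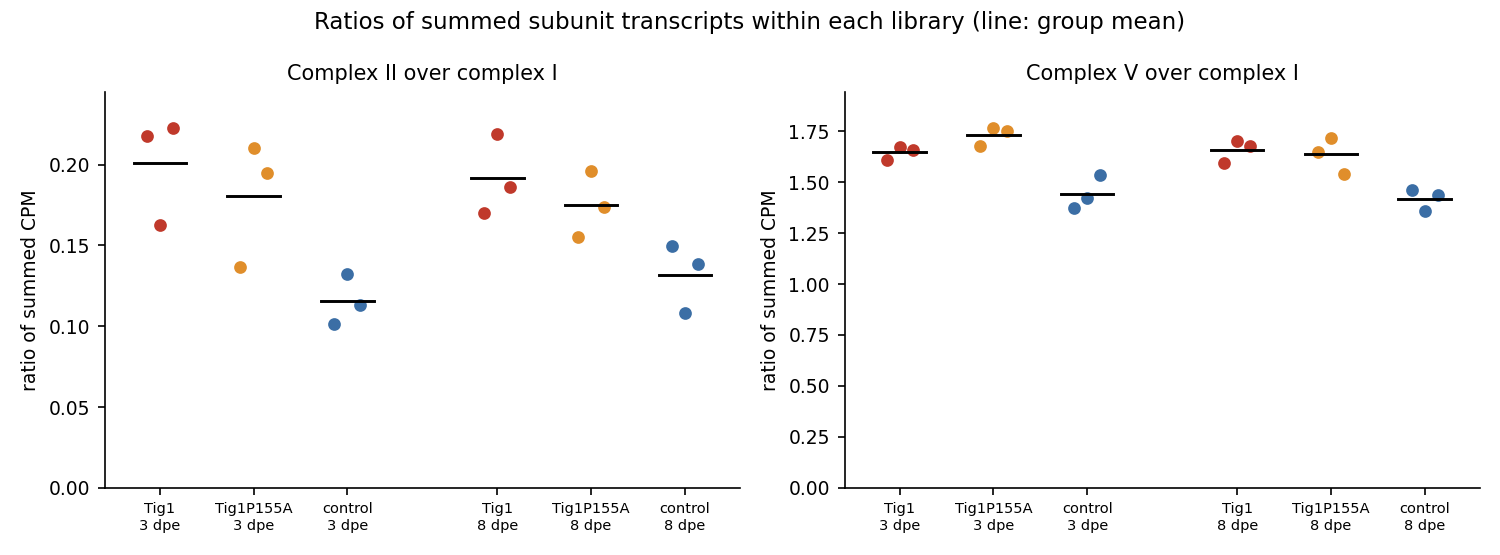
The ratio of the summed CPM of complex II to complex I and of complex V to complex I within each library (points) with the group mean (line). At each time point the Tig1 and Tig1P155A libraries lie above the control libraries in both panels.

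In complex III, UQCR10, a small subunit, had 52.8, 65.8 and 105 CPM in Tig1 and 39.3, 51.8 and 78.9 CPM in Tig1P155A cells at 3 dpe, against 170.1, 81.6 and 88.9 CPM in control cells. By 8 dpe it had 83.3, 43.1 and 45.6 CPM in Tig1 and 59.7, 43.1 and 66.8 CPM in Tig1P155A cells, against 62.1, 55.4 and 69.4 CPM in control cells. Control 3 dpe replicate 1 was again the highest library. UQCR10 changed by −0.47 (SE 0.22, adjusted p = 0.099, edgeR) and UQCRH, the hinge protein, by 0.13 (SE 0.18, adjusted p = 0.633, edgeR). Neither was called, where 21.4% of all genes tested were higher and 18.7% lower. DESeq2 called 1 of them lower, where 22.1% of all genes tested were. At an unadjusted p of 0.05, 1 passed, where 48.3% of all genes tested did.

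In complex IV, cytochrome c oxidase, 2 of 8 models fell and 0 rose, where 18.7% and 21.4% of all genes tested did, and 1 of the 2 falls was lost without control 3 dpe replicate 1. COX4I2 (AMEX60DD027180, forward strand of chromosome 3p from 289668627 to 290417950) encodes an isoform of subunit 4 that in mammals is abundant in lung and can be induced by low oxygen. It had 3.33, 1.06 and 0.676 CPM in Tig1 and 0.273, 1.34 and 1.48 CPM in Tig1P155A cells at 3 dpe, against 17.6, 14.7 and 15.0 CPM in control cells. At 8 dpe it had 12.3, 8.12 and 4.61 CPM in Tig1 and 9.06, 9.20 and 10.9 CPM in Tig1P155A cells, against 28.4, 33.1 and 40.5 CPM in control cells. The groups did not overlap at either time, and the lowest library held 3 counts.

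The log2 change of COX4I2 at 3 dpe was −3.16 with Tig1 (SE 0.59, adjusted p = 0.000556, edgeR) and −3.88 with Tig1P155A (SE 0.61, adjusted p = 8.49e-05, edgeR). Its change at 8 dpe was −2.02 with Tig1 (SE 0.55, adjusted p = 0.0184, edgeR) and −1.81 with Tig1P155A (SE 0.54, adjusted p = 0.0343, edgeR). It was the single member for which 12 of 12 overexpressing libraries lay below every control of their time point, where 6.05% of all genes tested were, and 0 members were above in 12 of 12, where 10.9% of all genes tested were. The average fall of 2.72 (SE 0.32, adjusted p = 1.5e-06, edgeR) passed the threshold under each scaling, filter and test tried and with each library left out. At 8 dpe the call with Tig1 was lost without Tig1 8 dpe replicate 2 or 3 or control 8 dpe replicate 3 (adjusted p up to 0.0882, edgeR). That with Tig1P155A was lost without Tig1P155A 3 dpe replicate 2, Tig1 8 dpe replicate 2 or any 1 of the Tig1P155A and control libraries of 8 dpe (adjusted p up to 0.137, edgeR). The connective tissue genes fell in the same comparison, with a median of −2.01, and their part in the fall of COX4I2 was not tested.

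**Figure D5:**
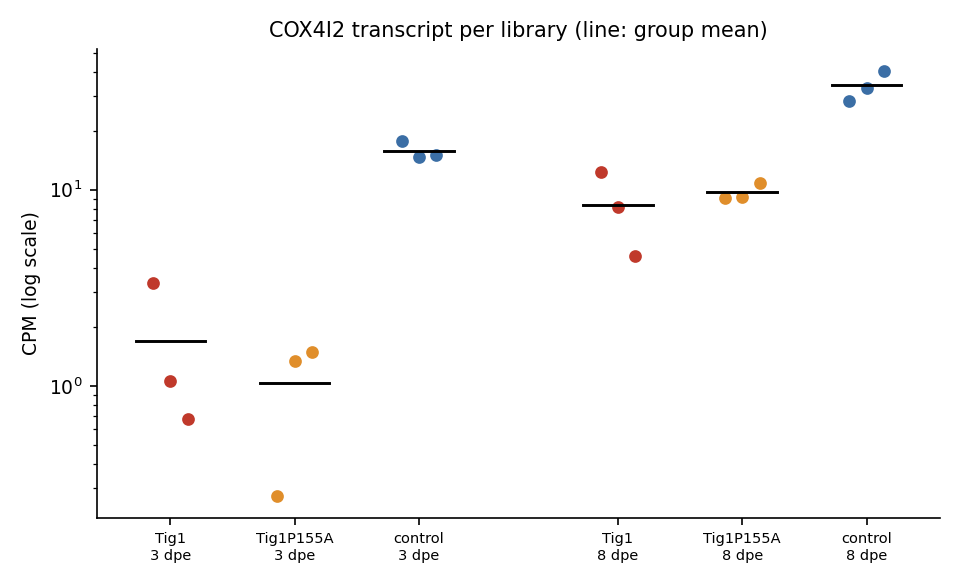
CPM of COX4I2 on a log axis in each library (points) with the group mean (line), for Tig1, Tig1P155A and control cells at 3 and 8 dpe. Overexpressing libraries lie between 0.273 and 3.33 CPM at 3 dpe and between 4.61 and 12.3 CPM at 8 dpe, below control libraries at 14.7 to 17.6 CPM and 28.4 to 40.5 CPM.

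COX7A2.S, the form of subunit 7A found in most mammalian tissues, had 80.0, 54.2 and 90.9 CPM in Tig1 and 85.5, 58.4 and 76.0 CPM in Tig1P155A cells at 3 dpe, against 210.0, 82.3 and 66.8 CPM in control cells. Its 8 dpe values were 50.8, 44.6 and 29.7 CPM in Tig1 and 64.8, 43.0 and 66.9 CPM in Tig1P155A cells, against 75.6, 75.5 and 59.3 CPM in control cells. Control 3 dpe replicate 1 was far above all other libraries. COX7A2.S fell by 0.60 (SE 0.22, adjusted p = 0.0392, edgeR), with −0.26 without that library (adjusted p = 0.305, edgeR), and the call was lost without 8 of the 18 libraries in all. The other single-model members were not called: COX6C changed by −0.44 (SE 0.26, adjusted p = 0.192, edgeR), COX5A by −0.06 (SE 0.19, adjusted p = 0.883, edgeR), COX6A1 by 0.23 (SE 0.20, adjusted p = 0.387, edgeR) and COX6B1.L by 0.11 (SE 0.21, adjusted p = 0.755, edgeR). The COX7B.L models, both with low counts, had 0.07 and 0.03 and were not called.

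Complex V had 0 of 17 models called in either direction (edgeR), where 21.4% of all genes tested were higher and 18.7% lower. At an unadjusted p under 0.05, 1 model was lower, where 23.3% of all genes tested were. DESeq2 called 2 lower (ATP5F1C and ATP5ME), where 22.1% of all genes tested were. ATP5F1B, the catalytic subunit of the head of complex V, had 669, 689.8 and 618 CPM in Tig1 and 611, 764 and 816 CPM in Tig1P155A cells at 3 dpe, against 681, 544 and 525 CPM in control cells. In the 8 dpe libraries it had 656, 613 and 450.0 CPM in Tig1 and 469, 542 and 582 CPM in Tig1P155A cells, against 608, 510.0 and 482 CPM in control cells. The groups overlapped, and the average change was 0.15 (SE 0.14, adjusted p = 0.436, edgeR). That of ATP5F1A, the other large subunit of the head, was −0.07 (SE 0.17, adjusted p = 0.821, edgeR).

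ATP5F1C, the central shaft, had 163, 129.6 and 154 CPM in Tig1 and 177, 199 and 150.1 CPM in Tig1P155A cells at 3 dpe, against 307, 187 and 146 CPM in control cells. By 8 dpe it had 114, 118 and 103 CPM in Tig1 and 123, 111 and 132 CPM in Tig1P155A cells, against 196, 146 and 129.9 CPM in control cells. It changed by −0.42 (SE 0.16, adjusted p = 0.0502, edgeR), with 6 of 12 libraries below every control, and passed the threshold in 7 of 18 cases of 1 library left out. Of the genes for the rotating ring of the membrane part, ATP5MC2 changed by 0.36 (SE 0.36, adjusted p = 0.456, edgeR) and ATP5MC3 by 0.01 (SE 0.27, adjusted p = 1, edgeR). Over the 17 models of the complex the changes ran from −0.47 for ATP5ME (SE 0.23, adjusted p = 0.113, edgeR) to 0.37 for an ATP5MG model (SE 0.43, adjusted p = 0.554, edgeR), with 9 of 17 negative.

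Each of the 4 comparisons with control, read singly, called COX4I2 and no other member. Lower members were thus 1 of 64 with Tig1 at 3 dpe, where 8.47% of all genes tested were lower, and 1 of 64 with Tig1P155A at 3 dpe, where 11.5% were. They were 1 of 64 with Tig1 at 8 dpe, where 1.29% were, and 1 of 64 with Tig1P155A at 8 dpe, where 1.72% were. Higher members were 0 of 64 in each (edgeR), where 15.5%, 15.2%, 10.6% and 10.6% of all genes tested were, in the same order. At an unadjusted p under 0.05 there were 2, 3, 0 and 0 higher members, where 22.4%, 19.9%, 18.1% and 16.6% of all genes tested were, and 6, 7, 1 and 1 lower members, where 14.8%, 18.2%, 6.44% and 7.82% were. DESeq2 called 0 higher in each and 7, 7, 1 and 1 lower. Its shares over all genes tested are not given for the single comparisons, so these counts have no background beside them. At 3 dpe the medians over the members were −0.19 for Tig1 and −0.19 for Tig1P155A cells, and at 8 dpe they were −0.29 for Tig1 and −0.0023 for Tig1P155A cells. Over all genes tested the medians were 0.0033, 0, 0.12 and 0, in the same order. Comparisons of the same time point share their control libraries.

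Whether the effect differed between the time points was tested as the mean effect at 8 dpe minus that at 3 dpe. Of the members 0 of 64 were called (edgeR and DESeq2), where 0.0197% of all genes tested were higher and 0.122% lower, and 1 had an unadjusted p under 0.05, where 9.48% of all genes tested did. It was COX4I2, with a difference of 1.61 (SE 0.66, adjusted p = 0.448, edgeR). Between the 2 forms, Tig1P155A minus Tig1 over both time points, 0 of 64 members were called (edgeR and DESeq2), as were 0% of all genes tested, and 1 had an unadjusted p under 0.05, where 6.92% of all genes tested did. The member was ATP5MC3, with 175, 129 and 75.7 CPM in Tig1P155A and 111, 79.3 and 65.3 CPM in Tig1 cells at 3 dpe. At 8 dpe it had 99.1, 71.5 and 119 CPM in Tig1P155A and 33.2, 89.7 and 30.7 CPM in Tig1 cells. The difference was 0.74 (SE 0.31, adjusted p = 0.69, edgeR).

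In control cells, 8 dpe against 3 dpe, 0 of 64 members were called (edgeR and DESeq2), where 0.268% of all genes tested were higher and 0.154% lower. The members had a median of −0.46, with 61 of 64 negative, where the 25377 genes tested had a median of 0.035, with 11118 negative. Among the members 8 had an unadjusted p under 0.05, where 9.1% of all genes tested did and 3.62% were lower. All 8 were lower at 8 dpe (COX5A, COX6A1, COX6B1.L, COX6C, UQCR10, UQCRH, ATP5PO and ATP5MD). Control 3 dpe replicate 1 is 1 of the 3 libraries on the 3 dpe side. COX4I2 went the other way, with 28.4 to 40.5 CPM at 8 dpe and 14.7 to 17.6 CPM at 3 dpe (1.11, SE 0.53, adjusted p = 0.555, edgeR).

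The messenger RNAs of the mitochondrial genome encode partners of these subunits. Of 12 tested, 0 were called on average by edgeR, where 21.4% of all genes tested were higher and 18.7% lower. DESeq2 called 0, where 23.2% of all genes tested were higher and 22.1% lower. At an unadjusted p under 0.05, 0 passed, where 48.3% of all genes tested did. The median change of the 12 was −0.21, from −0.52 for ND3 to 0.49 for ND6.

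The following lists are to be read against the 21.4% of all genes tested that were higher and the 18.7% that were lower on average, with a median of 0.05. Among factors that build the complexes, 5 of 14 genes listed as complex I assembly factors fell and 1 rose, with a median of −0.74. TMEM70, placed here by the list chosen and not by these data, fell by 1.14 (SE 0.23, adjusted p = 0.000549, edgeR). ACAD9 fell by 0.75 (SE 0.21, adjusted p = 0.00828, edgeR), and each was below the controls in 12 of 12 overexpressing libraries. NDUFAF8 rose by 1.11 (SE 0.28, adjusted p = 0.00424, edgeR). Without control 3 dpe replicate 1, 3 of these factors fell. Of 12 other assembly factors 3 fell and 2 rose, near the shares over all genes, with a median of −0.29, and 1 rose without control 3 dpe replicate 3 and without several other libraries. SDHAF4, which helps to mature SDHA, rose by 0.55 (SE 0.20, adjusted p = 0.0401, edgeR), TTC19, which serves complex III, rose by 1.496 (SE 0.28, adjusted p = 0.000302, edgeR), and ATPAF1, which assembles the head of complex V, fell by 1.12 (SE 0.30, adjusted p = 0.00615, edgeR).

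Mitochondrial ribosomal proteins form the machine that translates the messenger RNAs of the mitochondrial genome. Of 67 such genes 32 fell and 2 rose, where 18.7% of all genes tested were lower and 21.4% higher, with a median of −0.60. Without control 3 dpe replicate 1, 16 of 67 fell and 2 rose, and the shares over all genes are not given for that fit. MRPS27 fell by 1.39 (SE 0.21, adjusted p = 2.52e-05, edgeR) and MRPL53 fell by 1.28 (SE 0.23, adjusted p = 0.000175, edgeR), each below the controls in 12 of 12 libraries, and MRPS28 rose by 1.93 (SE 0.25, adjusted p = 5.34e-06, edgeR), above them in 12 of 12. Of 17 genes for the expression and upkeep of mitochondrial DNA 4 fell and 2 rose, where 18.7% and 21.4% of all genes tested did, with a median of −0.51. POLG2 fell by 1.24 (SE 0.38, adjusted p = 0.015, edgeR) and MTERF3 fell by 1.13 (SE 0.31, adjusted p = 0.00808, edgeR). PPRC1 fell by 0.98 (SE 0.23, adjusted p = 0.00264, edgeR) and TEFM fell by 0.87 (SE 0.29, adjusted p = 0.0221, edgeR). ESRRA, a nuclear receptor that activates mitochondrial genes in mammals, rose by 1.82 (SE 0.27, adjusted p = 2.84e-05, edgeR). MGME1 rose as well.

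In the citric acid cycle, which supplies complexes I and II, 4 of 17 genes fell and 3 rose, near the 18.7% and 21.4% of all genes tested, with a median of −0.22. SUCLG2, the GDP-specific subunit of succinyl-CoA ligase, fell by 1.17 (SE 0.21, adjusted p = 0.000219, edgeR). The ADP-specific subunit SUCLA2 rose by 0.68 (SE 0.18, adjusted p = 0.00652, edgeR), and SUCLG1, another subunit of the ligase, fell by 0.79 (SE 0.21, adjusted p = 0.00583, edgeR). OGDH, a subunit of the oxoglutarate dehydrogenase complex, rose by 0.95 (SE 0.18, adjusted p = 0.000371, edgeR). Without control 3 dpe replicate 1 or control 8 dpe replicate 1, 2 genes of the cycle fell.

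The list for glycolysis also held lactate dehydrogenase, carriers of glucose and lactate, and kinases of pyruvate dehydrogenase. Of its 20 tested genes 10 rose and 7 fell, where 21.4% and 18.7% of all genes tested did, with a median of 0.97. Among the 10 were the kinases PDK3 and PDK4, and HK3 with a mean of 0.307 CPM. SLC2A3, HK1, TPI1, GAPDH and PGK1 were listed but had no tested model. The enzymes ALDOA (2.08, SE 0.22, adjusted p = 4.83e-07, edgeR), PGAM1 (1.97, SE 0.24, adjusted p = 2.15e-06, edgeR) and PKM (1.57, SE 0.20, adjusted p = 3.32e-06, edgeR) rose, each above the controls in 12 of 12 libraries. PFKM (−2.95, SE 0.64, adjusted p = 0.00121, edgeR) and ALDOC (−2.23, SE 0.37, adjusted p = 7.87e-05, edgeR) fell, each below the controls in 12 of 12 libraries. HK2 (−1.53), SLC2A1 (−0.87) and PFKL (−0.46) fell as well. LDHA rose by 1.18 (SE 0.19, adjusted p = 7.25e-05, edgeR), while LDHB, the other common subunit of lactate dehydrogenase, fell by 1.45 (SE 0.21, adjusted p = 2.02e-05, edgeR), and the lactate carrier SLC16A1 fell by 1.52 (SE 0.21, adjusted p = 1.16e-05, edgeR). Of 14 carriers and genes of the response to low oxygen 3 rose and 2 fell, near or below the shares over all genes, with a median of −0.19, and 4 fell without control 3 dpe replicate 3. EPAS1, a transcription factor of that response, rose by 2.54 (SE 0.44, adjusted p = 0.000136, edgeR), and the channels VDAC2 (−0.71) and VDAC3 (−0.70) of the outer membrane fell. The myeloid markers rose and the connective tissue markers fell in the same libraries, and their part in these lists was not tested.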

How the data were processed

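Counts per gene model were deposited by the authors as 1 table of 18 libraries. Per the labels and methods, reads were demultiplexed with bcl2fastq 2.19.1, aligned to AmexG_v6.0-DD with STAR 2.7.6a and counted with featureCounts 2.0.1. No count was normalized, and whether counting used strand is not given in the sources used here. Of 99126 models, 25377 had at least 0.5 CPM in at least 1 library and were tested with edgeR 4.0.16 (quasi-likelihood test, TMM scaling) in R 4.3.3, with 6 group means in one fit and 12 residual degrees of freedom, and Benjamini-Hochberg adjustment over all of them. Totals ran from 9732514 to 23086124 counts, and with TMM scaling 3 counts were worth 0.0872 to 0.455 CPM. The fit was tested on simulated data. Alternatives were other scalings, filters, thresholds, DESeq2 1.42.0, a replicate block, the compared libraries alone and each library left out. No pair of libraries of the same group was a duplicate (smallest chi-square per degree of freedom 51.2), and pairs across groups were not checked in this way. By rule, named genes were core subunits, isoforms and, per complex, the called members with the largest and smallest changes. Members outside this rule were named in addition, among them UQCR10, UQCRH, COX6C, COX7B.L, ATP5ME, ATP5MG, NDUFV3, NDUFB3, NDUFB1, NDUFB5 and NDUFA4. Pathway lists took 1 model per symbol. The members and lists were chosen with earlier results of these data known. The 92 spike-in sequences had 0 counts. Sequences were not used here, and 1 member is counted but not reported here by name.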

Additional observations from a re-analysis of the deposited data

How the results depend on the processing

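The average fall of COX4I2 kept its direction and its call in every alternative run, from −3.22 to −2.62. For the average over the 4 differences, higher and lower members numbered 2 and 8 as reported, 0 and 19 with DESeq2's size factors, 0 and 28 with library size alone, 0 and 21 without the mitochondrial genome, 1 and 20 by DESeq2, 1 and 6 with every gene of at least 1 count, 0 and 1 at an adjusted p under 0.01, and 0 and 1 with a change of at least 2-fold. Libraries of the same replicate number and time point had correlations of −0.25 to 0.198 over 18 pairs, with the group means taken out. Whether a number stands for a shared pool is not stated, and these correlations cannot decide it. With the replicate block 2 members were higher and 5 lower. At 3 dpe, lower members with Tig1 and Tig1P155A numbered 2 and 3 with DESeq2's size factors, with library size alone and with the stricter filter, 4 and 6 without the mitochondrial genome, and 7 and 7 by DESeq2. At 8 dpe both numbered 0 at an adjusted p under 0.01. With 1 library left out, higher and lower members ranged from 0 to 3 and from 1 to 18 on average, from 0 to 1 and from 1 to 8 with Tig1 at 3 dpe, from 0 to 2 and from 1 to 6 with Tig1P155A at 3 dpe, and lower members from 0 to 1 with either at 8 dpe. Shares over all genes tested are not given for the filters, thresholds, replicate block or libraries left out. Nor are they given for single comparisons under other settings, so those counts have no background beside them. The median of all genes moved from 0.05 to −0.52 with library size alone, −0.10 without the mitochondrial genome and 0.22 with every gene of at least 1 count, and that of the members to −0.74 with library size alone.

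Several changes turned sign, among them those of SDHA, called higher as reported, and of the complex II median, each 0.50 as reported. With DESeq2's size factors NDUFV1 had −0.014, COX6B1.L −0.0048 and ATP5MC3 −0.099, and by DESeq2 −0.012, −0.0047 and −0.099. With library size alone the median of complex II was −0.090, and SDHA had −0.090, SDHC −0.36, NDUFV1 −0.47, COX6A1 −0.32, COX6B1.L −0.41, ATP5F1B −0.41, ATP5MC2 −0.25 and ATP5MC3 −0.51. Without the mitochondrial genome NDUFV1 had −0.11, SDHC −0.076, COX6B1.L −0.10, ATP5F1B −0.058 and ATP5MC3 −0.20. ATP5MC3 had −0.013 with the stricter filter and NDUFV2 0.016 with the replicate block. With 1 library left out, changes ranged from −0.19 to 0.15 for NDUFV2, −0.037 to 0.24 for SDHC, −0.24 to 0.10 for COX5A, −0.081 to 0.38 for COX6B1.L, −0.23 to 0.043 for ATP5F1A and −0.23 to 0.28 for ATP5MC3. The summed level of a complex over that in control cells was 0.838 for complex I, 1.29 for II, 0.930 for III, 0.933 for IV and 0.980 for V, and as a share of nuclear counts 0.638, 0.975, 0.711, 0.714 and 0.746. Without its higher member complex III had 0.746. The cause of these shifts was not tested. Models under 6 CPM, 9 of 64, carry few counts and large errors.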
